A study of Mus musculus with 48 samples.

Results

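The core spliceosome genes described here are 35 genes that encode proteins of the spliceosome, chosen by name and followed as genes and as isoforms. They are 35 of the 21435 genes in the data and comprise 3 genes of the U1 particle, 12 of the U2 particle and branch-site recognition, 5 of the U4/U6/U5 tri-snRNP, 7 Sm proteins, 6 Lsm proteins, and *Prpf19* and *Ddx5*. All 35 had reads, on 159 of their 164 transcripts listed in the data. The study followed alternative splicing as blood stem cells emerge in the mouse embryo. It sequenced 48 cells, each on its own, from the aorta-gonads-mesonephros (AGM, the part of the trunk where these cells first arise) of wild-type C57 embryos at embryonic day 10. The cells were sorted by FACS and picked by hand, and full-length polyA cDNA of each was read on a Nanopore PromethION instrument. By title they form 24 AEC and 24 HEC cells, names that commonly stand for arterial and hemogenic endothelial cells but are not spelled out in the labels. The cell type label of the HEC cells reads hematopoietic stem cells, so the groups follow the titles. No treatment, altered allele or sort gate is given.

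The spliceosome removes introns from pre-mRNA. The U1 particle binds the start of the intron, SF1 and the U2AF proteins bind its branch site and end, the U2 particle then takes over the branch site, and the U4/U6/U5 tri-snRNP brings in the parts that form the catalytic centre. Sm proteins form a ring on the U1, U2, U4 and U5 RNAs, and Lsm proteins form one on U6 and, in the cytoplasm, on mRNAs that are being decayed. In blood, mutations of the human genes *SF3B1* and *U2AF1* are known from myelodysplastic syndromes.

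Levels are reads per 10000 reads of a cell. The cells held 13261 to 4883854 reads in the AEC group and 96410 to 8897958 in the HEC group, with a median of 8317 and 10645 genes detected. In the shallowest cell 1 read was worth 0.754 reads per 10000 in the AEC and 0.104 in the HEC group. A 0 in a shallow cell therefore need not mean that a gene was silent. The labels name no animals, so each group counts as 1 sample: SDs describe the spread over 24 cells, no test was possible, and a difference is given as the log2 ratio of the HEC over the AEC mean with a pseudocount of 0.1. Reads may include PCR copies of 1 molecule, and intervals given below cover counting error only. The summed level of 8 hemogenic markers had a median of 1.32 in AEC and 15.1 in HEC cells, and that of 8 endothelial markers had a median of 32.0 and 15.2, with all markers of both lists detected in both groups. In AEC 11, AEC 19 and AEC 20 the summed level of *Cdh5* and *Kdr* was only 0.382, 0.225 and 0.30.

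The core spliceosome genes were together higher in HEC cells. Their summed level ranged from 30.2 over a median of 68.9 to 93.5 in AEC cells and from 51.6 over a median of 84.3 to 100.6 in HEC cells. The groups overlapped, but 22 of 24 HEC cells lay above the AEC median. In AEC 3, 7, 8, 10, 15 and 16 the sum was below every HEC cell, and in HEC 2, 3, 6, 12, 15 and 24 it was above every AEC cell. Of these, AEC 7, 8 and 10 were shallow, with 13261, 44142 and 21522 reads, fewer than any HEC cell. AEC 3, 15 and 16 held 783084 to 1984458 reads. The mean of the sum was 67.2 ± 18.5 (SD, n = 24 cells) in AEC and 83.75 ± 13.02 (SD, n = 24 cells) in HEC, a ratio of 1.25, or 0.32 on the log2 scale. With the reads of each group pooled, the level was 69.1 (95% Poisson interval 68.8 to 69.4) in AEC and 79.4 (79.1 to 79.7) in HEC. Within a group the sum had little relation to depth, with a Spearman rho with reads of 0.10 over 24 AEC and 0.03 over 24 HEC cells, given as a description.

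Gene by gene, 29 of the 35 members had a higher mean in HEC cells, and 6 (*Snrpa*, *Snrpc*, *Prpf38a*, *Snrpd2*, *Snrpe* and *Lsm5*) had a lower one. Of the 3298 genes whose mean over all 48 cells reached 0.5, 53.1% were higher. A log2 ratio of at least 0.5 was reached by 11 members, or 31.4%, against 21.6% of all genes, and one of at most -0.5 by 0 members, against 22% of all genes. With medians over cells in place of means, 33 members were higher against 74.9% of all genes, and 23 by at least 0.5 against 50.4%. The median log2 ratio of the means was 0.33 over the members and 0.05 over all genes. With the reads of each group pooled, which weights cells by depth, 25 members were higher against 46.7% of all genes. By at least 0.5, 5 were higher against 18%, and of these *Sf3b6* and *Prpf38a* were not among the 11 above. All of these values depend on how cells are scaled. Median-of-ratios scaling sets cells to the same typical level of 855 genes found in every cell, of which 13 are members. It moved the median of all genes by -0.29. The members' median became 0.08, or 0.38 relative to that shift, with 20 members higher against 34.4% of all genes and 2 members (*Sf3b2* and *Prpf31*) at 0.5 or more against 10.8%. Under that scaling *Snrpc*, *Snrpd2* and *Prpf38a* were lower by at least 0.5, against 35.6% of all genes, and the 35-gene sum stood at -0.02. Whether HEC cells hold more spliceosome mRNA in absolute terms was not tested, because no spike-in values were used here.

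**Figure D1:**
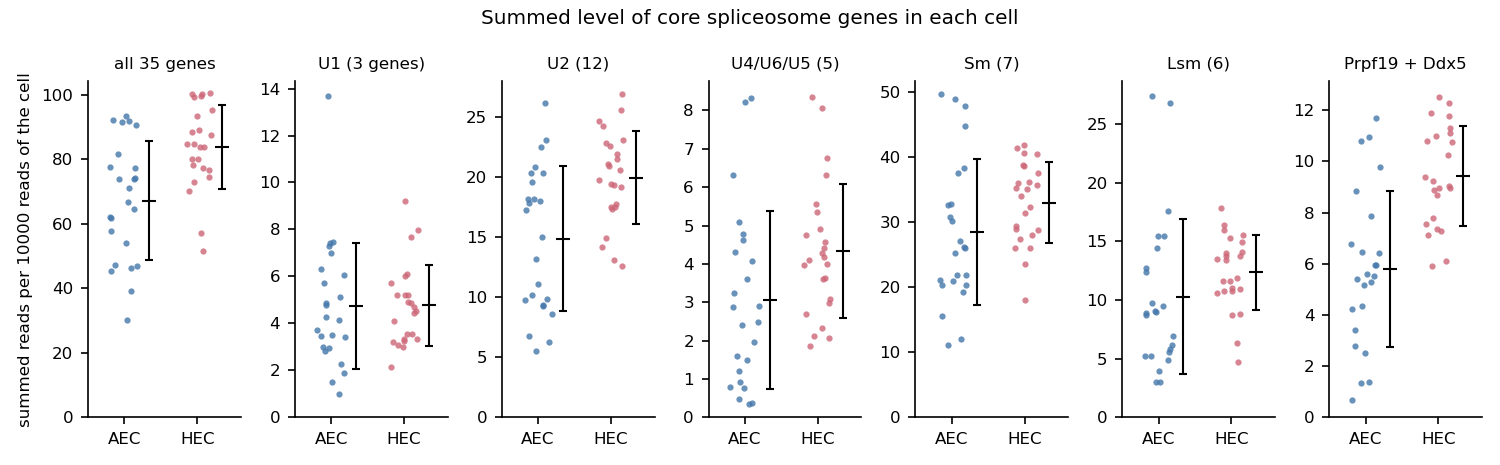
Summed level (reads per 10000 reads of the cell) of all 35 genes and of each subcomplex, 1 point per cell, AEC blue and HEC red; the bars are the mean and SD over 24 cells. The 35-gene sum averages 67.2 in AEC and 83.8 in HEC cells, and AEC cells spread more widely in every panel.

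The mean of 2 members differed by more than the SD of both groups, *Sf3b2* and *Ddx5*, or 5.71% of members against 4.03% of all genes. Cells of the AEC group varied more throughout: the coefficient of variation was lower in HEC cells for 35 of 35 members, as it was for 95% of all genes. Other measured features moved with the groups too. The summed level of 11 genes of the dissociation stress response had a median of 6.74 in AEC and 27.0 in HEC cells, that of 7 erythroid genes one of 9.09 and 26.3, and that of the macrophage genes, of which 4 of 6 were found, one of 0.0632 and 0.794. Mesenchymal genes had a median of 3.40 in AEC and 3.79 in HEC cells but reached 147 in AEC 19. Their part in the differences was not tested.

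The U1 particle, which selects the start of the intron, had nearly the same summed level in both groups, 4.74 ± 2.69 (SD, n = 24 cells) in AEC and 4.76 ± 1.73 in HEC, a log2 ratio of 0.01. Its 3 genes went different ways. *Snrnp70* encodes the U1-70K protein, which binds a stem-loop of U1 RNA. It ranged from 0.0255 over a median of 0.943 to 2.52 in AEC and from 0.385 over 1.52 to 5.02 in HEC cells, overlapping widely, with 18 HEC cells above the AEC median and a log2 ratio of 0.66. *Snrpc*, whose protein steadies the pairing of U1 with the splice site, averaged 2.16 ± 1.92 in AEC and 1.57 ± 0.707 in HEC cells, -0.44 on the log2 scale, while the medians were nearly equal at 1.41 and 1.47. *Snrpa* (the U1-A protein) averaged 1.57 ± 1.63 and 1.53 ± 0.949, a log2 ratio of -0.03 that was 0.14 without AEC 17. In 1 cell, AEC 18, the U1 sum reached 13.7, and without that cell the log2 ratio of the sum was 0.13. U1 genes made up 7.37% ± 3.79 of the 35-gene sum in AEC and 5.76% ± 1.98 in HEC cells, with 5 of 24 HEC cells above the AEC median of 7.51%.

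The 12 genes of U2 and branch-site recognition were all higher in HEC cells by their means, where 53.1% of all genes were, but 5 of them were not with pooled reads. Their sum ranged from 5.49 over a median of 16.1 to 26.2 in AEC and from 12.6 to 26.9 in HEC cells, and 10 AEC cells lay below every HEC cell. The mean was 14.9 ± 6.03 in AEC and 19.9 ± 3.84 in HEC, which is 0.42 on the log2 scale. Under median-of-ratios scaling 9 of the 12 were higher, against 34.4% of all genes, and *Snrpa1*, *Sf3a1* and *Sf3b6* were lower. With pooled reads 7 of the 12 were higher, against 46.7% of all genes, and the log2 ratio was -0.08 for *Snrpa1*, -0.06 for *Snrpb2*, -0.12 for *Sf3a1*, -0.0007 for *Sf3a3* and -0.04 for *Sf3b1*.

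*Sf3b2*, at chr19:5273932-5295455 on the minus strand (GRCm38, mm10), encodes a subunit of SF3b, the part of the U2 particle that holds the branch site. It ranged from 0.159 over a median of 1.41 to 3.59 in AEC cells and from 0.952 over 2.34 to 4.67 in HEC cells. The ranges overlapped, and 20 HEC cells were above the AEC median. The means were 1.35 ± 1.02 and 2.50 ± 1.13 (SD, n = 24 cells each), the largest log2 ratio of the 35 members at 0.84, with 0.79 to 0.94 when any 1 cell was left out and 0.61 under median-of-ratios scaling. With pooled reads the log2 ratio was 0.40. *Sf3b2* shares 194 bases with AC125059.3 on the other strand, and reads of the strands cannot be told apart here, but that gene had means of 0 and 0.00543 reads per 10000.

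*U2af1* and *U2af2* encode the small and large subunit of U2AF, which bind the AG at the intron end and the pyrimidine tract before it. *U2af1* ran from 0 over a median of 0.583 to 1.93 in AEC cells and from 0.124 over 1.09 to 2.04 in HEC cells, a log2 ratio of 0.59. A processed pseudogene 96.4% identical to part of *U2af1*, AC102268.2, held 0.0372 reads per 10000 in AEC and 0 in HEC cells, and with it the ratio was 0.52. *U2af2* ran from 0 over 0.438 to 2.49 in AEC and from 0.124 over 0.817 to 1.97 in HEC cells, a log2 ratio of 0.55. For both genes the groups overlapped over most of their range, and 2 AEC cells but 0 HEC cells were at 0. In the shallowest AEC cell 1 read alone was worth 0.754, and the part of depth in these zeros was not tested.

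Of the other SF3b genes, *Sf3b1*, whose protein clamps the branch site, averaged 2.04 ± 1.55 in AEC and 2.86 ± 1.12 in HEC cells, 0.46 on the log2 scale and -0.04 with pooled reads, with 23 HEC cells above the AEC median. *Sf3b3* (0.46), *Sf3b5* (0.38) and *Sf3b6* (0.09), further SF3b subunits, had the log2 ratios in brackets. The ratio of *Sf3b6* was -0.0020 without HEC 17, 0.34 without AEC 21 and 0.55 with pooled reads. In SF3a, the companion complex, *Sf3a3* was at 0.42 and *Sf3a1* at 0.13, and *Sf3a1* rested on AEC 12: that cell held 24.4% of the AEC sum, and without it the ratio was 0.43. *Snrpb2* was at 0.37 and *Snrpa1*, its partner on U2 RNA, at 0.09, which became -0.0018 without HEC 24. *Sf1*, whose protein first binds the branch site and then gives way to U2, averaged 1.28 ± 1.17 and 1.61 ± 0.616, a log2 ratio of 0.30.

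The 5 genes of the U4/U6/U5 tri-snRNP summed to 3.05 ± 2.32 in AEC and 4.34 ± 1.75 in HEC cells, 0.49 on the log2 scale, and 9 AEC cells were below every HEC cell. *Prpf8*, the scaffold of the catalytic centre, ran from 0 over a median of 0.752 to 3.33 in AEC and from 0.497 over 1.20 to 2.69 in HEC cells, a log2 ratio of 0.51. *Eftud2*, the GTPase of U5, ran from 0 over 0.197 to 3.20 in AEC and from 0.0621 over 0.763 to 3.94 in HEC cells, a log2 ratio of 0.74. The groups overlapped for both, with 20 and 21 HEC cells above the AEC median. *Prpf31*, which bridges U4 and U5, ran from 0 over 0.0789 to 1.57 in AEC and from 0.131 over 0.574 to 1.94 in HEC cells, a log2 ratio of 0.73. All 24 HEC cells lay above the AEC median of *Prpf31*, but that median is near the floor. It is below the 0.754 that 1 read was worth in the shallowest AEC cell. Only 6 AEC and 21 HEC cells had at least 10 reads of *Prpf31*. The highest AEC cell of *Eftud2* and *Prpf31* was AEC 19, a cell with little *Cdh5* and *Kdr*. *Snrnp200*, the helicase that unwinds U4 from U6, was at 0.24. *Prpf38a*, a tri-snRNP partner, was at -0.10 but at 0.51 without AEC 12, which held 43.0% of its AEC sum, and at 0.70 with pooled reads.

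The 7 Sm genes, whose proteins form the ring that all these particles but U6 share, held 41.8% ± 9.46 in AEC and 39.4% ± 4.73 of the 35-gene sum in HEC cells. Their sum was 28.4 ± 11.2 in AEC and 33.0 ± 6.24 in HEC cells, with a log2 ratio of 0.21, and of -0.14 under median-of-ratios scaling. *Snrpd1* ran from 0 over a median of 1.68 to 7.97 in AEC and from 0.228 over 3.24 to 5.43 in HEC cells, a log2 ratio of 0.53. *Snrpf* ran from 0.323 over 3.03 to 7.47 in AEC and from 2.28 over 5.14 to 7.28 in HEC cells, a log2 ratio of 0.52. For both genes every HEC cell lay within the AEC range, and 21 and 23 of 24 HEC cells were above the AEC median. *Snrpd3* (0.33), *Snrpg* (0.31) and *Snrpb* (0.16) were higher by less, and *Snrpe* (-0.04) and *Snrpd2* (-0.18) were lower, *Snrpe* turning to 0.05 without AEC 24 and *Snrpd2* to 0.12 with pooled reads. *Snrpf* shares 567 bases with *Ccdc38* on the other strand and *Snrpd3* 113 bases with *Gucd1*, genes with means of at most 0.218 reads per 10000 in either group.

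The 6 Lsm genes summed to 10.3 ± 6.60 in AEC and 12.4 ± 3.17 in HEC cells, with a log2 ratio of 0.26, and of -0.11 under median-of-ratios scaling. *Lsm2* ran from 0 over a median of 0.978 to 3.72 in AEC and from 0.121 over 1.67 to 4.39 in HEC cells, with a log2 ratio of 0.61 and overlapping groups. *Lsm4* (0.44), *Lsm3* (0.33), *Lsm6* (0.22) and *Lsm7* (0.14) were higher by less, *Lsm3* turning to -0.03 with pooled reads, and *Lsm5* was at -0.05, or 0.17 without AEC 23, and a near copy of it, the processed pseudogene Gm7846, averaged 0.00021 and 0 reads per 10000. AEC 23 held 28.0% of the AEC sum of *Lsm6*, and without it that ratio was 0.61. Since these 6 proteins are shared by the ring on U6 and the cytoplasmic decay ring, their mRNA levels do not tell the rings apart.

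*Ddx5*, at chr11:106780355-106789185 on the minus strand, encodes a DEAD-box RNA helicase that acts in splicing and as a partner of transcription factors. It ran from 0.636 over a median of 5.40 to 11.7 in AEC cells and from 5.86 over 9.07 to 12.5 in HEC cells. Every HEC cell lay above the AEC median, though the highest AEC cells reached well into the HEC range. The means were 5.65 ± 3.08 and 9.24 ± 1.91 (SD, n = 24 cells each), a log2 ratio of 0.70, with 0.65 to 0.77 when any 1 cell was left out. The ratio was 0.39 under median-of-ratios scaling and 0.28 with pooled reads. *Prpf19*, the ubiquitin ligase of the Prp19 complex, was the only member with a mean over all cells under 0.5. It averaged 0.153 ± 0.334 and 0.172 ± 0.183, with a log2 ratio of 0.10 that was -0.03 without HEC 24. *Prpf19* was at 0 in 8 AEC cells and 0 HEC cells. In the shallowest AEC cell 1 read was worth 0.754, more than these means, and the part of depth in these zeros was not tested.

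**Figure D2:**
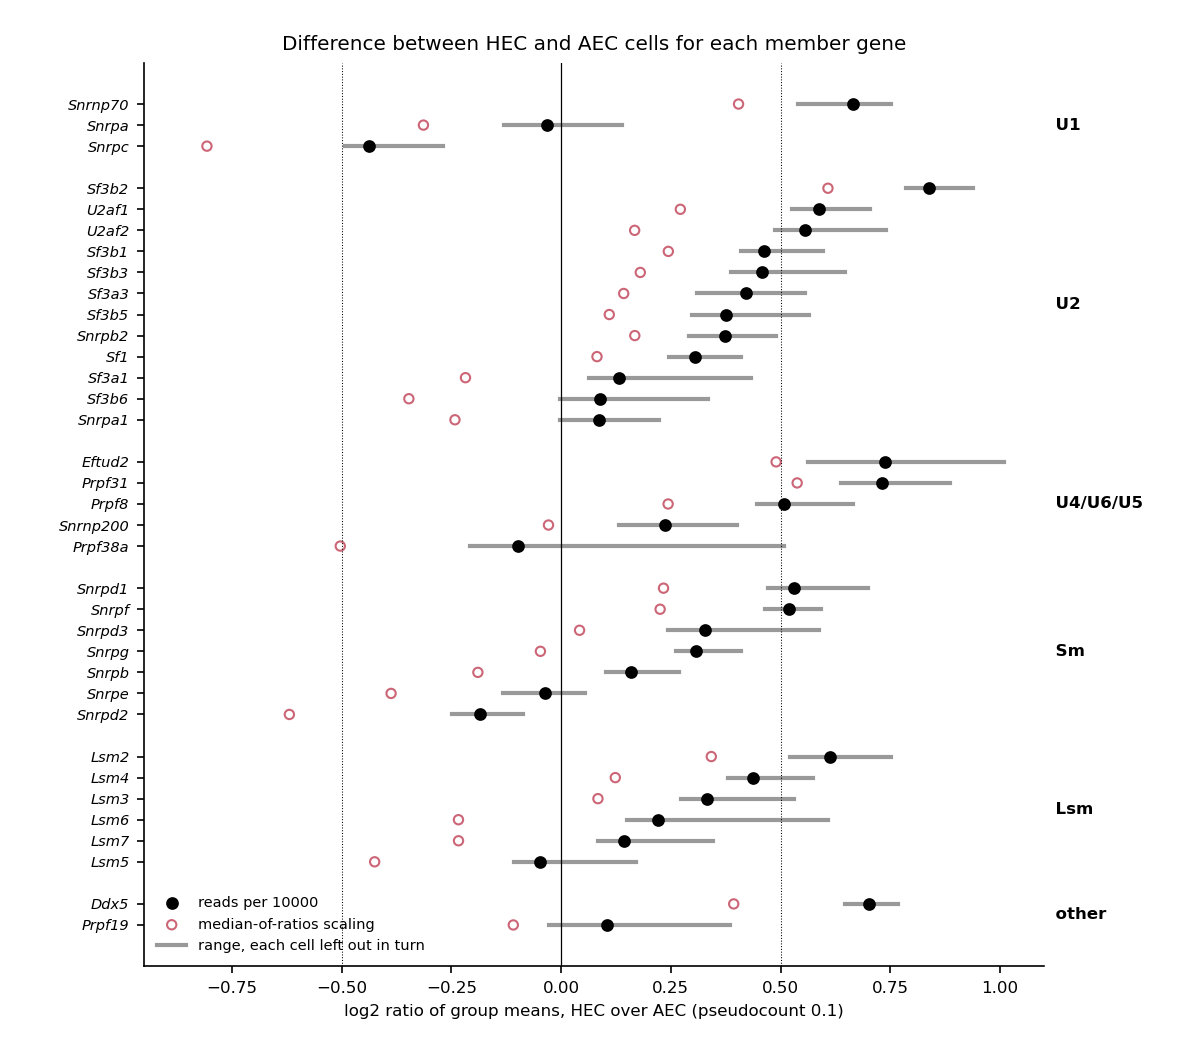
Log2 ratio of the HEC over the AEC mean for each member, by subcomplex: black points from reads per 10000, open red circles after median-of-ratios scaling, grey bars the range when each cell is left out in turn, dotted lines at -0.5 and 0.5. *Sf3b2* is highest at 0.84 and *Snrpc* lowest at -0.44, and the range of *Prpf38a* reaches 0.51.

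Isoforms could be compared for 21 of the 35 members, those with 2 or more transcripts whose mean reached 1 in both groups and that had reads in 12 or more cells of both. In 7 of them (33.3%, against 26.7% of the 1032 genes that met the same minimum) a transcript holding at least 10% of the gene in 1 group differed by at least 10 percentage points. That was 14 of 34 transcripts, or 41.2%, against 29.1% of transcripts of all such genes. Shares are given in percent of all values of the gene in the cells of a group. In single cells they were often near 0 or 100%. Over the 32 members with 2 or more transcripts, 1 transcript held over 90% of the reads in 379 of 485 AEC and 524 of 717 HEC pairs of a gene and a cell with at least 10 reads of it.

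Among the members that met this minimum, the largest isoform differences were in *Sf3b2*. Its coding transcript Sf3b2-201 held 52.7% of the gene in AEC and 87.9% in HEC cells, and Sf3b2-208, annotated as a retained-intron transcript, held 45.1% and 9.96%. Sf3b2-208 starts inside the intron before exon 14 of the 21 exons of Sf3b2-201, at chr19:5283948-5284574, carries the last 461 of its 627 bases, and shares 7 downstream exons with Sf3b2-201. The sequence below spans the end of that intron (chr19:5283928-5284007, minus strand, from the GENCODE M21 transcripts on GRCm38), since reads on its left part separate the transcripts, with the last 2 bases of the intron in capitals.
Sf3b2 intron end: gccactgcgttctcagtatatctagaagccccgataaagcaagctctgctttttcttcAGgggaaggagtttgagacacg
Sf3b2-208 was detected in 14 AEC and 8 HEC cells. Among cells with at least 10 reads of *Sf3b2*, its share had a median of 28.9% and a highest value of 94.7% over 16 AEC cells, and a median of 0% and a highest value of 71.6% over 24 HEC cells. In 7 of the AEC and 3 of the HEC cells it held over 50%, while 6 and 16 cells had none. With pooled reads the share was 33.4% (95% Clopper-Pearson interval 32.0 to 34.8) in AEC and 4.48% (4.05 to 4.93) in HEC cells. In absolute terms Sf3b2-208 averaged 0.609 ± 0.858 reads per 10000 in AEC and 0.249 ± 0.467 in HEC cells, and Sf3b2-201 averaged 0.712 ± 0.854 and 2.19 ± 1.19. The higher *Sf3b2* level in HEC cells thus lay on the coding transcript.

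*Sf3b1* differed in the same direction. Its coding transcript Sf3b1-201 held 74.1% in AEC and 93.6% in HEC cells, and Sf3b1-207, annotated as retained intron, held 19.9% and 3.80%. Sf3b1-207 starts in the intron before exon 23 of 25 and carries the last 540 of that intron's 3754 bases. It was detected in 6 AEC and 4 HEC cells, and AEC 24 held 42.8% of its AEC sum. Without AEC 24 its share differed by -9.29 percentage points in place of -16.1. The median share over cells was 0% in both groups.

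*Snrnp70* was the other gene among those that met the minimum with a retained-intron transcript lower in HEC cells by at least 10 points. Its coding transcript Snrnp70-201 held 52.9% in AEC and 78.2% in HEC cells, with a median over cells of 66.0% and 88.3%. The retained-intron transcript Snrnp70-213 held 15.1% and 0.48%, detected in 5 AEC cells and in HEC 23 alone. AEC 18 held 46.8% of its AEC sum, and without AEC 18 the difference was -8.48 points in place of -14.6. Of 5 retained-intron transcripts of members with at least 10% of a gene, 3 were lower in HEC cells by at least 10 points, or 60%, against 34.8% of 112 such transcripts of all genes, and 0 were higher, against 12.5%.

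Over all members, retained-intron transcripts held 3.50% ± 2.57 of the 35-gene sum in AEC and 1.92% ± 1.37 in HEC cells (SD, n = 24 cells each), and 3 of 24 HEC cells were above the AEC median of 3.38%. Over all protein-coding genes the same share was 3.72% ± 0.869 and 3.21% ± 0.561, with 7 of 24 HEC cells above the AEC median of 3.49%. By gene, the mean level on retained-intron transcripts was lower in HEC cells for 11 and higher for 14 of the 25 members that had such reads. *Sf3b2*, *Sf3b1* and *Snrnp70* held most of these reads in the AEC group, and their means were 0.61, 0.53 and 0.329 reads per 10000 in AEC and 0.255, 0.18 and 0.238 in HEC cells. Without these 3 genes, left out after their values were seen, the retained-intron share was 1.21% ± 1.42 in AEC and 1.22% ± 1.00 in HEC cells. In these cells the difference in share was carried by these 3 genes. Because they were picked by their values, the shares without them are a description and no test of the rest of the list. Among the others, chosen after their values were seen, *Sf3a1* was at 0.0947 in AEC and 0.0034 in HEC cells and *Sf3b3* at 0.0884 and 0.211. All non-coding transcripts together, which add those annotated as nonsense-mediated decay or processed transcript, held 4.94% ± 3.08 and 3.41% ± 1.39 of the members' sum. Sf3b2-208 and Sf3b1-207 cover only the 3′ part of their genes. The annotated length of the transcripts on which reads fell, relative to the longest coding transcript of the gene, averaged 92.6% ± 3.09 for members in AEC and 94.1% ± 1.37 in HEC cells, and 90.3% ± 1.42 and 91.5% ± 0.669 over all coding genes, where 9 AEC cells lay below every HEC cell. The part of incomplete cDNA in these shares was not tested.

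**Figure D3:**
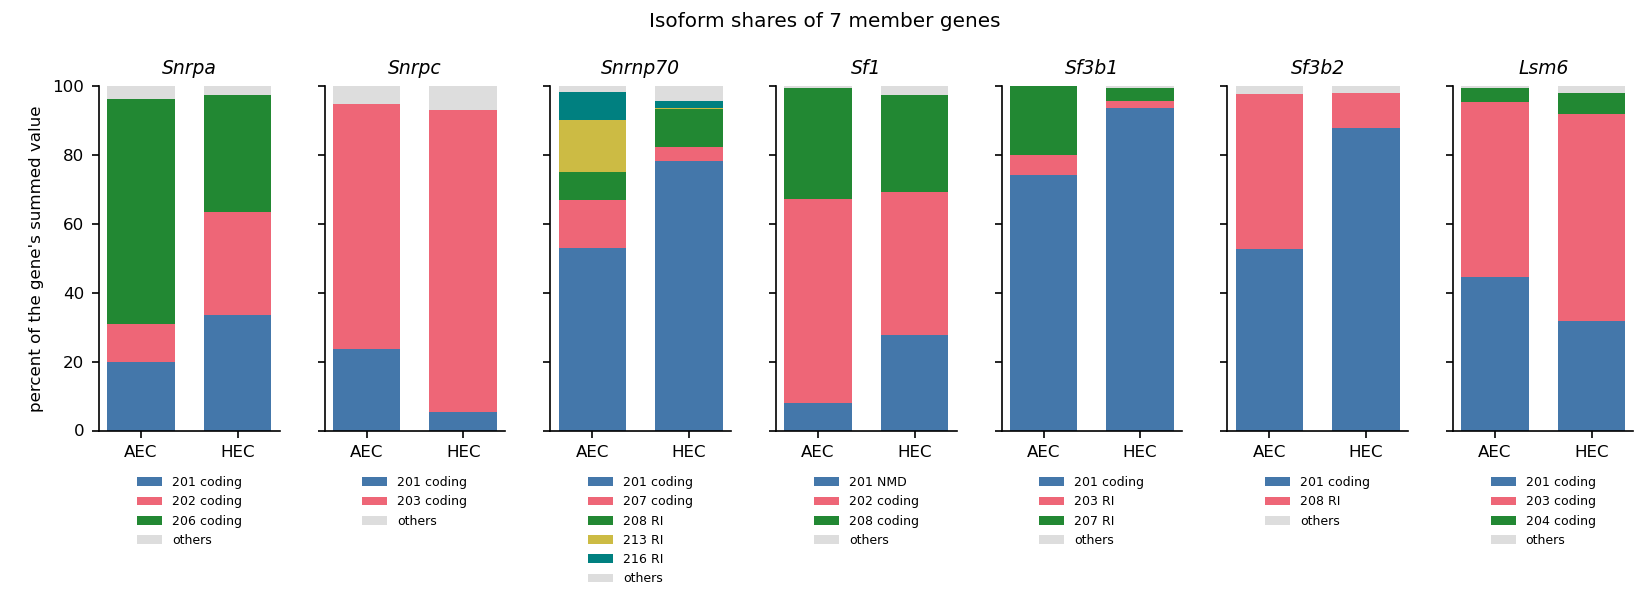
Share of each transcript in the summed value of its gene (percent, bars from 0 to 100) in AEC and HEC cells for the 7 members with a difference of at least 10 points; transcripts under 5% in both groups are drawn as others, RI is retained intron and NMD nonsense-mediated decay. Sf3b2-208 holds 45.1% in AEC and 9.96% in HEC cells, and Sf1-201 holds 8.04% and 27.7%.

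*Sf1* went the other way from these genes, with a larger non-coding share in HEC cells. Sf1-201, annotated as a target of nonsense-mediated decay, held 8.04% in AEC and 27.7% in HEC cells, and the coding transcript Sf1-202 held 59.3% and 41.4%. The difference in Sf1-202 depended on how cells were weighted: with pooled reads it held 47.99% and 44.7%, and over cells with at least 10 reads its mean share was 38.1% and 38.0% and its median 30.6% and 37.6%. The coding Sf1-208 differed little, at 32.0% and 28.4%. Sf1-201 lacks the third of the 13 exons of Sf1-202. That exon has 76 bases, not a multiple of 3, at chr19:6368364-6368439 on the plus strand, and is shown because its absence sets Sf1-201 apart, whose last exon also starts further upstream.
Sf1 exon skipped in Sf1-201: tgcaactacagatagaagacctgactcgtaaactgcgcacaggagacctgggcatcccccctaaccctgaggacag
Sf1-201 was detected in 8 AEC and 14 HEC cells. Its share over cells with at least 10 reads of *Sf1* had a median of 0% and a range from 0 to 100% in 16 AEC cells, and a median of 17.1% with the same range in 24 HEC cells. With pooled reads it was 6.09% (95% Clopper-Pearson interval 5.38 to 6.87) and 29.8% (28.7 to 31.0). It was higher in HEC cells whichever cell was left out, by 15 to 21.5 percentage points, and by 8.53 points as a mean over the cells with at least 10 reads.

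In *Snrpa*, *Snrpc* and *Lsm6* the transcripts that differed have identical coding exons and differ outside them. Of *Snrpa*, Snrpa-206 held 65.4% in AEC and 34.0% in HEC cells, Snrpa-201 held 19.8% and 33.5%, and Snrpa-202 held 11.2% and 30.0%. The 3 transcripts share the same 861 coding bases. As a mean over cells with at least 10 reads, Snrpa-201 differed by only 0.59 points. The median share of Snrpa-206 was 50% over 15 AEC and 27.9% over 23 HEC cells, and its values ran from 0 to 100% and from 0 to 91.2%. The other 2 genes rested on single cells. Snrpc-201 held 23.8% and 5.25% and Snrpc-203 held 71.0% and 87.8%, but AEC 18 held 62.7% of the AEC sum of Snrpc-201, and without AEC 18 the differences were -5.22 and 4.45 points. Lsm6-201 held 44.5% and 31.8%, but AEC 23 held 58.6% of its AEC sum, and without AEC 23 the difference turned to 6.20 points.

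**Figure D4:**
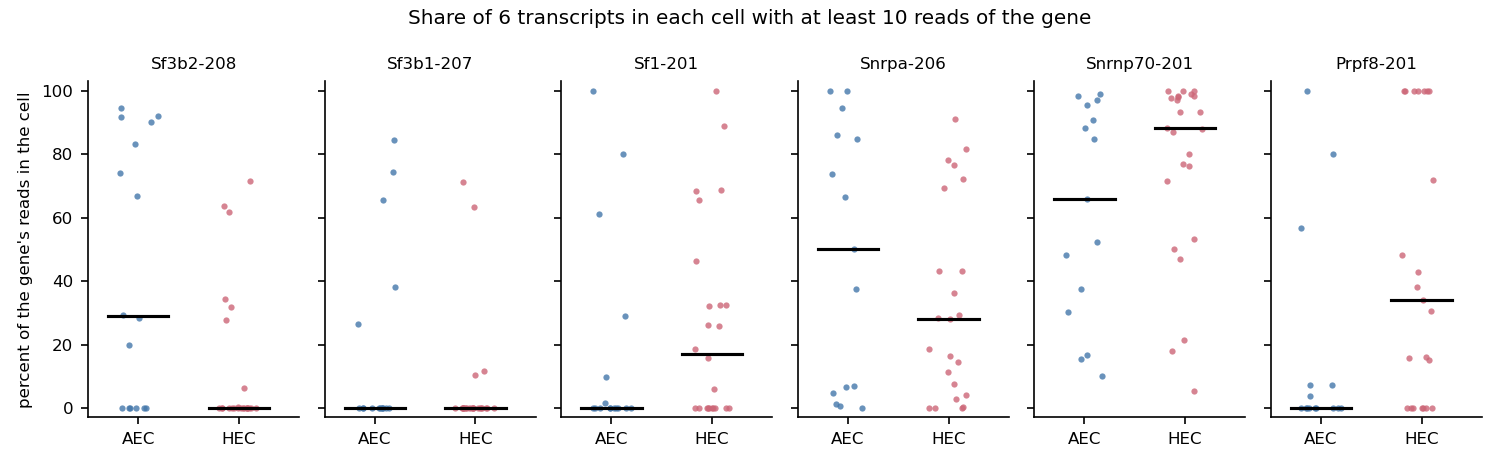
Share of 6 transcripts in the reads of their gene (percent) in each cell with at least 10 reads of the gene, 1 point per cell, AEC blue and HEC red, with the median as a line. The median of Sf3b2-208 is 28.9% in AEC and 0% in HEC cells, that of Sf1-201 is 0% and 17.1%, and single cells span most of the range in both groups.

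Some members below the minimum for isoforms also differed, named here after their values were seen. The share of all genes below the minimum that differed as much was not computed. Prpf8-201 held 9.30% of *Prpf8* in AEC and 45.7% in HEC cells, and Prpf8-202, with the same coding exons, held 85.1% and 54.2%. Eftud2-202 held 6.03% and 36.2% of *Eftud2*. Over cells with at least 10 reads of the gene, the shares of Prpf8-201 and Eftud2-202 ran from 0 to 100% in both groups. U2af2-209, whose exon 10 is 12 bases longer than the matching exon of U2af2-201, held 36.4% and 5.03% of *U2af2*, with 39.2% of its AEC sum in AEC 18. The extended exon (chr7:5075141-5075239, plus strand) is shown with the bases absent from that exon of U2af2-201 in capitals. Other transcripts of the gene were not compared.
U2af2 exon 10 of U2af2-209: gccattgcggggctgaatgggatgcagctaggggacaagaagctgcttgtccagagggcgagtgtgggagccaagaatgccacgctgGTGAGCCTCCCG
Each of these shares comes from genes with under 1 read per 10000 in AEC cells.

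*U2af1* is a known case of a pair of exons used in place of each other. U2af1-201 and U2af1-202 differ in exon 3 of 8, which has 67 bases in both, at chr17:31651646-31651712 and chr17:31652502-31652568 on the minus strand. The exons are shown because they carry the choice, with the 23 bases that differ in capitals and 44 identical (65.7%).
U2af1 exon 3 of U2af1-201: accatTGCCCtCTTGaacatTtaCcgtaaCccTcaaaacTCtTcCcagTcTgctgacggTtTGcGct
U2af1 exon 3 of U2af1-202: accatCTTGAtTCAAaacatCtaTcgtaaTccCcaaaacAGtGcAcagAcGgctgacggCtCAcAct
U2af1-201 held 65.8% of the gene in AEC and 76.4% in HEC cells, and U2af1-202 held 21.8% and 16.6%. U2af1-208, annotated as a target of nonsense-mediated decay, held 7.50% and 4.92%. Over cells with at least 10 reads of *U2af1*, the share of U2af1-201 had a median of 87.0% in 13 AEC and 88.8% in 22 HEC cells and ran from 7.14 to 100% and from 2.33 to 100%. The groups were not separated by this choice, and U2af1-201 led in both.

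**Figure D5:**
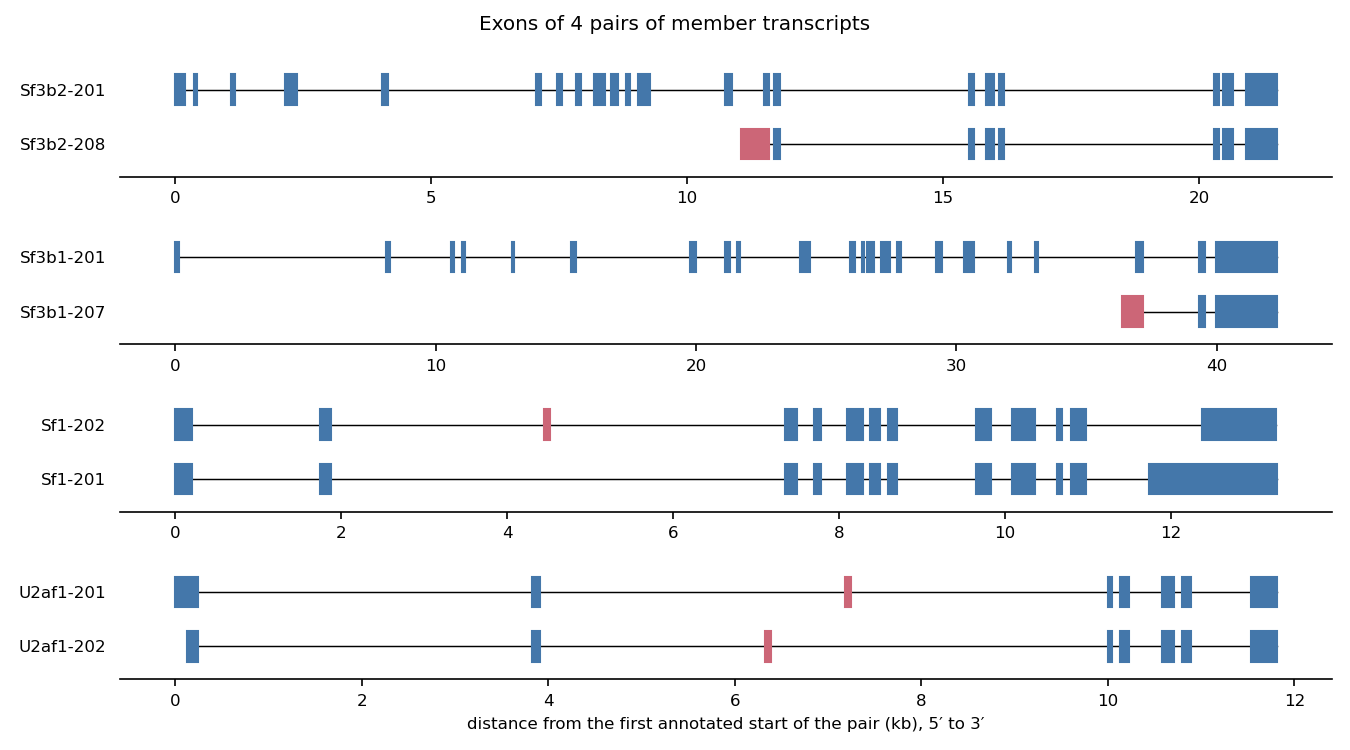
Exons (boxes) of 4 pairs of member transcripts, drawn to scale as distance in kb from the first annotated start of each pair, 5′ to 3′. Red marks a first exon that begins in an intron (Sf3b2-208, Sf3b1-207) or an exon with no overlapping exon in the other transcript (exon 3 of Sf1-202, and of U2af1-201 and U2af1-202); blue marks the other exons.

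Of 83 spliceosome genes outside the 35, 46 had a mean of at least 0.5, with a median log2 ratio of 0.27. Of these 46, 34 (73.9%, against 53.1% of all genes) were higher in HEC cells, 10 (21.7%, against 21.6%) by 0.5 or more, and 3 were at -0.5 or less. Under median-of-ratios scaling their median was -0.02, and 23 (50%, against 34.4%) were higher. The lists of single steps hold few genes each, and the same 53.1% and 34.4% of all genes are their background. Among U1-associated factors all 5 used were higher, with *Luc7l2* at 0.91. Under median-of-ratios scaling all 5 were also above 0, with *Luc7l2* at 0.47, but *Luc7l3* and *Luc7l* only at 0.0016 and 0.0042. Of 9 U2-associated genes 7 were higher, and 3 under median-of-ratios scaling, led by *Rbm17* (0.80), *Dhx15* (0.61) and *U2surp* (0.55). Of 8 tri-snRNP genes 6 were higher, and 5 under median-of-ratios scaling, led by *Snrnp40* (0.69), *Snrnp27* (0.49) and *Snu13* (0.34).

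In the Prp19 complex, which joins as the spliceosome is activated, 7 of 9 genes were higher, and 3 under median-of-ratios scaling, where the list median was -0.06. *Bcas2* was at 0.56, *Syf2* at 0.42 and *Ctnnbl1* at -0.55, but AEC 12 held 57.7% of the AEC sum of *Ctnnbl1*, which was at 0.47 without it. Of 4 exon junction genes 2 were higher, with a list median of -0.32 under median-of-ratios scaling, and with *Rbm8a* at 0.88, *Eif4a3* at 0.34 and *Magohb* at -0.81. Of 6 genes for assembly of the Sm ring 4 were higher, and 3 under median-of-ratios scaling, where the list median was -0.10, with *Clns1a*, a chaperone of Sm proteins, at 0.90, *Tgs1* at 0.34 and *Gemin7* at -0.77. The 3 minor spliceosome genes used were *Zrsr2* (0.28), *Zcrb1* (-0.02) and *Snrnp48* (0.0089), and the 2 Lsm paralogs were *Lsm12* (-0.49) and *Lsm14a* (0.43). With all cells neither list had a common direction. But AEC 12 held 41.8% of the AEC sum of *Lsm12*, which was at 0.14 without it, and *Zcrb1* was at 0.19 without AEC 15. None of 6 genes of the late steps reached the minimum level.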

How the data were processed

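Per the submitters' processing notes, the authors used minimap2 2.18-r1015, Salmon 1.1.0 and mm10 as the build; no annotation or filter is named, these being not given in the sources used here. The deposited signal values of each cell are reads per transcript per 10000 reads of that cell over 52927 transcripts. Dividing by the smallest value above 0 gave whole numbers to within 0.01, and so reads and depth per cell, from 13261 to 8897958 reads. GENCODE M21 gave genes and transcript types for 52799 transcripts; the other 128 were left out. Transcript values were summed per gene. No pair of cells was identical, and no cell was removed. With 1 sample per group no test was run; SDs are over cells.

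The members, the subcomplexes, the marker lists and the lists of other spliceosome genes were chosen with earlier results of these data known. All members were named, in full where the absolute log2 ratio was at least 0.5 or the difference exceeded both SDs. Transcripts were named at a share of at least 10% in a group and a difference of at least 10 points, and up to 3 genes per other list by absolute ratio, some of which are not reported here. Near copies (90% identity over 50% of the query) were sought with BLAST+ 2.17.0. Scripts ran in Python 3.11.15 (matplotlib 3.10.9, scipy 1.17.1, pandas 2.3.3, numpy 2.4.6), and the ratio computation was tested on simulated data. Alternatives were other pseudocounts, averages, scalings, transcript classes and subsets of cells.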

Additional observations from a re-analysis of the deposited data

How the results depend on the processing

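Directions and sizes changed with the scaling, the pseudocount and the way cells were averaged. The count of members higher by at least 0.5 (11 as reported, against 21.6% of all genes) was 23 with the ratio of group medians, against 50.4%. It was 5 with pooled reads, against 18%, and 2 with median-of-ratios scaling, against 10.8%. It was 2 with a pseudocount of 1 and 28 with the difference of mean log2 values, where the share of all genes was not computed. The 5 with pooled reads were *U2af1*, *Prpf38a*, *U2af2*, *Sf3b6* and *Snrnp70*, and of these *Prpf38a* and *Sf3b6* were not among the 11. The rest of the 11 were then lower: *Sf3b2* and *Eftud2* at 0.40, *Lsm2* at 0.39, *Snrpf* at 0.37, *Snrpd1* at 0.34, *Prpf31* at 0.32, *Prpf8* at 0.29 and *Ddx5* at 0.28. The median of all genes was 0.51 with the difference of mean log2 values and with group medians, and -0.06 with pooled reads. A second median-of-ratios scaling, which leaves out each cell's zeros and was chosen after seeing the data, moved the median of all genes by -0.58. It gave a list median of -0.17 (0.41 relative to that shift), 6 members higher, 0 by at least 0.5 and 10 lower by at least 0.5. The median of all genes was itself -0.53 under this scaling, so most genes were lower by at least 0.5. The exact shares of all genes were not computed. Members lower by at least 0.5 numbered 3 with the first median-of-ratios scaling, against 35.6% of all genes. They numbered 1, *Snrpc*, when the 6 cells with the fewest genes were left out of each group.

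In the order of first and second median-of-ratios scaling, the log2 ratio was -0.024 and -0.48 for the 35-gene sum, -0.32 and -0.74 for U1, -0.14 and -0.62 for Sm, -0.11 and -0.79 for Lsm, and -0.020 and -0.30 for the median of the other spliceosome genes, which was 0.85 with group medians. Under the second, U2 was at -0.21, *U2af1* at -0.28, *U2af2* at -0.10, *Snrpd1* at -0.20, *Snrpf* at -0.15 and *Lsm2* at -0.10. The U1 sum was also at -0.056 with pooled reads, -0.14 when cells with the fewest genes were left out, -0.012 without AEC 11, 19 and 20, low in *Cdh5* and *Kdr*, and -0.051 to 0.13 with each cell left out in turn. The share of the sum, HEC minus AEC, was -0.043 points for U2 and 0.0056 for Sm with pooled reads, and for Lsm 0.10 without AEC 11, 19 and 20 and -0.59 to 0.84 with each cell left out. The share of Lsm6-201 differed by 5.70 points as a mean of cell shares and by -17.3 to 6.20 with each cell left out. With each cell left out, the list median stayed between 0.29 and 0.39 and the count at 0.5 or more between 9 and 13. The other 13 named transcripts kept their sign under every alternative run, but not their size: as a mean of cell shares 6 of the 14 differed by under 10 points (Snrpa-201, Snrpc-201, Snrpc-203, Sf1-201, Sf1-202 and Lsm6-201), and with pooled reads 3 did (Snrpc-203, Sf1-202 and Lsm6-201). For Sf1-202 the difference of -17.9 points was -3.32 with pooled reads and -0.019 as a mean of cell shares. The causes were not tested.

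No paired analysis was possible because the cell numbers only name cells and no test was run. Of all cells, 18 AEC and 23 HEC cells had at least 200000 reads, and in those cells alone, an alternative chosen after seeing the data, all 14 shares kept their direction.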
